A study of Mus musculus with 6 samples.

Results

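The interferon-stimulated effector genes described here are 51 genes whose products carry out the antiviral and antimicrobial work of an interferon response. They were chosen by gene symbol, and all 51 were among the 24411 genes listed in each library. Their RNA was measured in macrophages of C57BL/6 mice, an inbred laboratory strain, by sequencing of RNA depleted of ribosomal RNA. Monocytes of the bone marrow had been separated by fluorescence-activated sorting into LFA1-hi Itgam-hi and LFA1-lo Itgam-lo cells. Each subset was kept for 7 days with 20 ng/ml M-CSF, the growth factor that turns monocytes into macrophages. For both subsets the medium held 10% fetal bovine serum and was refreshed on day 4. No interferon is named among the labelled culture additions of either group. LFA1 is a leukocyte adhesion receptor, and Itgam (CD11b) is a chain of a related receptor. The groups are called LFA1-hi and LFA1-lo macrophages after the sort, with 3 libraries each, and values are given in the order of replicates 1, 2 and 3. The labels give neither the age nor the sex of the mice, and do not say whether the replicates came from separate animals, and the p-values given here speak to variation among libraries alone.

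Interferons are secreted proteins that warn cells of infection. Type I interferons bind the receptor made of Ifnar1 and Ifnar2 and act through a complex that includes Stat2 and Irf9 and binds a promoter element called the interferon-stimulated response element (ISRE). Interferon gamma binds Ifngr1 and Ifngr2, and its signal reaches genes through another element, the gamma-activated site (GAS). The Ifit, Oas and Mx families are known mainly for acting on viral RNA and viral particles. The guanylate-binding proteins (Gbp) and the immunity-related GTPases (Irg) mainly act on the vacuoles of bacteria and parasites. Macrophages express many of these genes at a low level without infection.

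Libraries held 15191262 to 17614509 expected counts, and 3 counts, the limit that a count of 0 allows, corresponded to 0.170 to 0.197 CPM (counts scaled to library size). Such limits cover counting error only. All 14 macrophage markers on a fixed list were tested and expressed. Of these, 8 fell in LFA1-hi macrophages and 1 rose, beside 15.6% and 16.1% of all tested genes. Their median log2 fold change (LFA1-hi minus LFA1-lo) was -0.37, so the list moved in the direction of the effector genes. Those with the largest changes were Csf1r, the M-CSF receptor (-1.02), Cd14 (-0.86), Adgre1 (-0.83) and C1qb (-0.65), all past the edgeR threshold of an adjusted p under 0.05. Of the other cell types, 9 of 12 lymphocyte markers had 0 counts in every library. Of 8 plasmacytoid dendritic cell markers, Klk1 was at 0 and Siglech did not exceed 0.15 TPM (a transcript level scaled for gene length and library size). The 2 markers of that list that were tested, Tcf4 (-0.79) and Runx2 (-0.41), both fell, and its summed TPM was 23.4, 25.3 and 26.0 in LFA1-hi libraries, against 43.5, 32.7 and 41.6 in LFA1-lo libraries. Of 8 dendritic cell markers, Flt3 and Ccr7 were at 0 in every library, while Itgax, at 21.4 to 126 TPM, and Batf3, at 2.44 to 5.80 TPM, were tested and not called. Summed TPM of that list was 52.7, 85.8 and 132 in LFA1-hi libraries and 52.5, 110.0 and 24.9 in LFA1-lo libraries. Summed TPM of 11 neutrophil markers was 111, 113 and 100.3 in LFA1-hi libraries, against 155, 182 and 291 in LFA1-lo libraries. The part of any of these lists in the effector levels was not tested.

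Many interferon effector genes were lower in LFA1-hi than in LFA1-lo macrophages. Of the 51 genes, 49 passed the filter on low counts, and 26 of these fell in LFA1-hi macrophages while 0 rose (edgeR quasi-likelihood test, Benjamini-Hochberg adjusted p under 0.05 over 11692 genes). Of all tested genes, 15.6% fell and 16.1% rose. At an unadjusted p under 0.05, 1 effector gene was higher and 34 were lower, against 21.5% and 21.2% of all tested genes. DESeq2 called 1 higher and 33 lower (17.3% and 17.4% of all genes), and limma voom 1 higher and 24 lower (16.8% and 15.2%). The median log2 fold change, LFA1-hi minus LFA1-lo, was -0.75 over the 49 genes, with 46 negative, beside -0.00 over all tested genes. Summed over the 51 genes, TPM was 2855, 2607 and 2486 in LFA1-hi libraries and 3565, 4698 and 4565 in LFA1-lo libraries. In bulk RNA, fewer cells that express a gene and less RNA per cell cannot be told apart.

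The LFA1-lo libraries were far from alike. Over all tested genes LFA1-lo replicate 2 stood apart, with correlations of log CPM of 0.972 to replicate 1 and 0.969 to replicate 3, beside 0.979 between replicates 1 and 3. In the effector genes it was replicate 1. Replicate 1 was the lowest of the 3 LFA1-lo libraries in 48 of 49 genes, against 23.9% of all tested genes, and Ifitm2 was the exception. Replicate 2 was the highest of the 3 in 32 genes (31.9% of all tested genes) and replicate 3 in 17 (34.9%). LFA1-lo replicates 2 and 3 both exceeded every LFA1-hi library in 46 genes, against 26.1% of all tested genes. In 27 of these 46 genes LFA1-lo replicate 1 also lay above every LFA1-hi library (23.5% of all tested genes). It lay within the LFA1-hi range in 8 (1.92%) and below every LFA1-hi library in 11 (0.744%). In Oasl1, Ifi44 and Phf11d, the 3 genes outside these 46, LFA1-lo replicate 1 was also below every LFA1-hi library, which makes 14 of 49 genes in all against 36.8% of all tested genes.

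**Figure D1:**
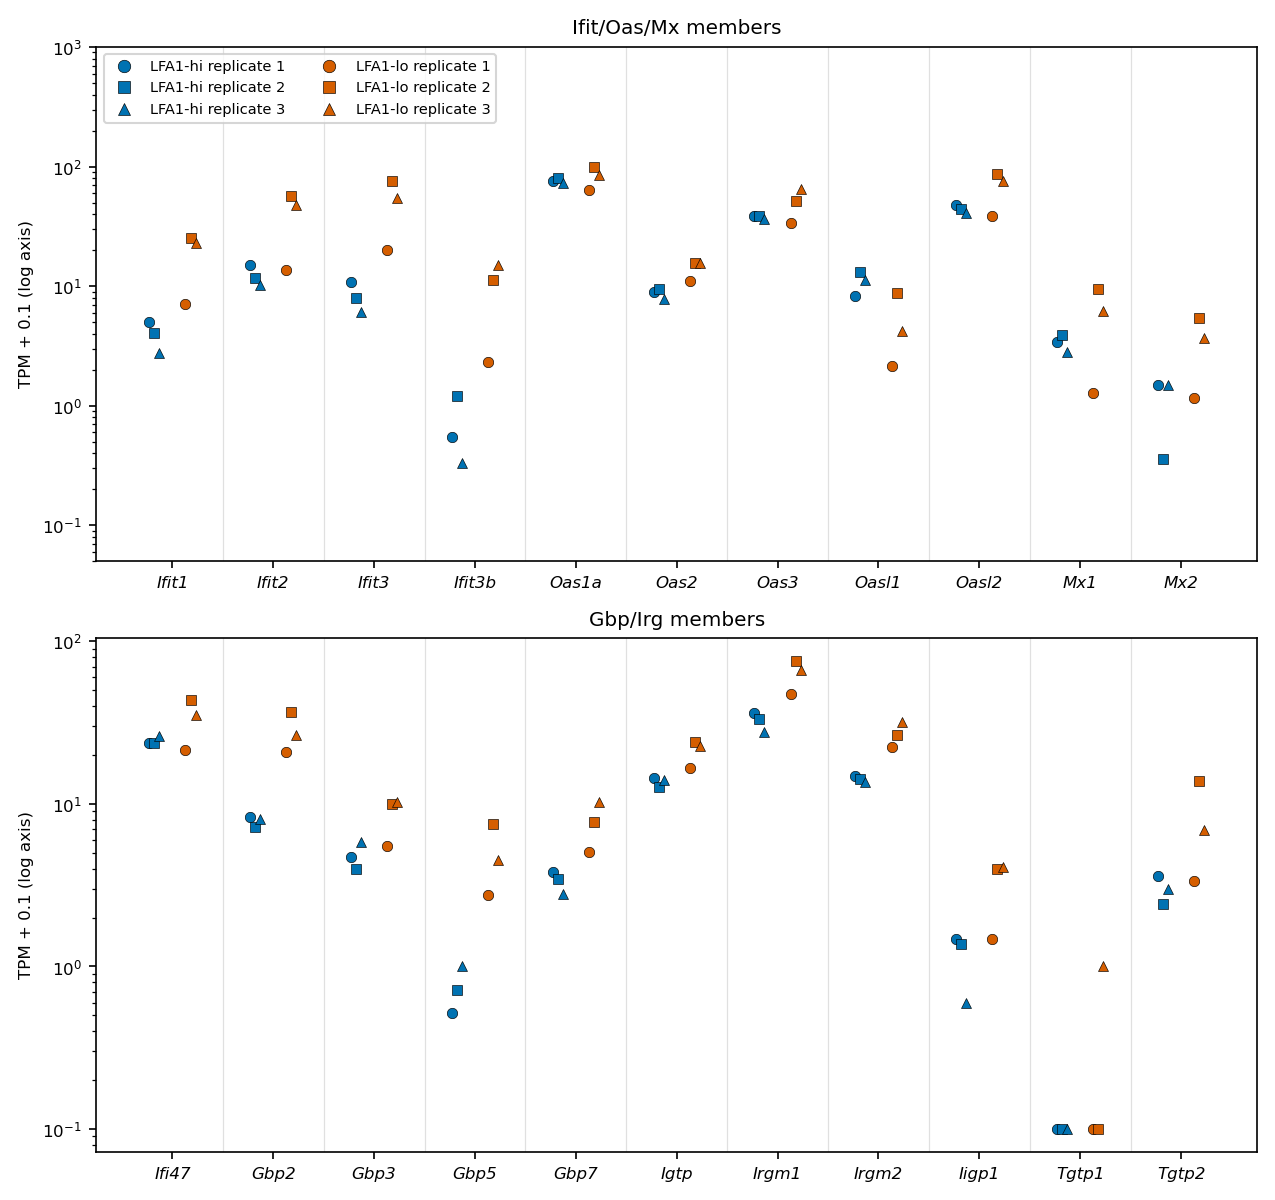
Level of each Ifit, Oas and Mx gene (top) and each Gbp and Irg gene (bottom) in every library, as TPM + 0.1 on a log axis, with the LFA1-hi libraries left of the LFA1-lo libraries and a marker shape for each replicate. Summed over the 11 Ifit, Oas and Mx genes, TPM was 215, 214 and 192 in LFA1-hi libraries and 194, 446 and 395 in LFA1-lo libraries, while the 11 Gbp and Irg genes summed to 111, 102 and 102 in LFA1-hi libraries and 146, 248 and 219 in LFA1-lo libraries. LFA1-lo replicate 1 (orange circles) thus lies within the LFA1-hi range in the Ifit, Oas and Mx sum and above it in the Gbp and Irg sum. Such a sum weighs abundant genes most, among them Oas1a, Oasl2 and Oas3.

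Promoter sequences are shown because ISRE and GAS elements are the known entry points of the interferon signals to these genes. Sequences were read from RefSeq promoters of GRCm38.p6, available for 43 of the 51 genes, over the 250 bases before the start of each gene. The ISRE was searched as GAAA, then 2 bases of any kind, then GAAA, and the GAS as TTCNNNGAA, both on both strands. The GAS letters read the same on both strands, and in 1 effector promoter, that of Bst2, a GAS match overlapped an ISRE match. In 4 Irg promoters a GAS match stood 2 bases before an ISRE match. They are written 5′ to 3′ along the gene's strand, with both motifs in capitals, and lie at chr11:58199503-58199539 (plus strand), chr11:58214894-58214930 (plus), chr11:48992306-48992342 (minus) and chr11:49064265-49064301 (minus).
Igtp: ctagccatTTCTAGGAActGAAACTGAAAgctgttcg
Irgm2: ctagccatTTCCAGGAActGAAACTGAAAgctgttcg
Tgtp1: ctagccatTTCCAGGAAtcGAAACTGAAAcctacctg
Tgtp2: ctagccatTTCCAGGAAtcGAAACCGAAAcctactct

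An ISRE match was found in 21 of 43 effector promoters (48.8%), against 3.46% of 27025 genes with a promoter, and a GAS match in 10 of 43 (23.3%), against 8.13%. By class, 5 of 8 Ifit, Oas and Mx promoters, 9 of 10 Gbp and Irg promoters and 7 of 25 others held an ISRE match. A GAS match was present in 2 of 8, 6 of 10 and 2 of 25. Both motifs stood together in 6 of 10 Gbp and Irg promoters, in 1 of 8 Ifit, Oas and Mx promoters and in 0.400% of all genes. A match describes the letters alone. ISRE matches were not confined to genes that fell. Oas1a, Oas3, Gbp3 and Bst2 held a match and were not called, while Ddx58, Dtx3l, Sp100 and Samd9l fell and held none. An ISRE window is shown for 5 genes picked from those that fell in LFA1-hi macrophages and held a match. Ifit1, Ifit3 and Ifit3b held 2 matches each, and the match nearer the gene start is shown. The match is in capitals, on the strand where it reads GAAA. The 5 windows lie at chr19:34640796-34640821, chr19:34583399-34583424, chr19:34607795-34607820, chr3:142620596-142620621 and chr5:92349085-92349110, all on the minus strand of the genome.
Ifit1: agcagtgaGAAACTGAAActgagact
Ifit3: ggaaagtaGAAACTGAAAcagactta
Ifit3b: ggaaagtaGAAACTGAAAcagactta
Gbp2: aagacagtGAAAGTGAAActaaaaga
Cxcl10: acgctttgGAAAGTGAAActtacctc

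The windows of Ifit3 and Ifit3b were the same in every letter, as are most bases of their transcripts. Promoters differed within each class. Ifit2 held a GAS match and no ISRE match, Oas1a held both motifs, and Gbp2, Gbp3 and Irgm1 held an ISRE match and no GAS match. The 250 bases upstream of Ifit3 and Gbp7 are shown as examples that do not stand for their classes. Ifit3 held 2 ISRE matches and no GAS match, and Gbp7 held 1 ISRE and 2 GAS matches. Both are on the plus strand, at chr19:34583279-34583528 and chr3:142530086-142530335, and an ISRE on the other strand appears in them as TTTC, 2 bases, TTTC.
Ifit3: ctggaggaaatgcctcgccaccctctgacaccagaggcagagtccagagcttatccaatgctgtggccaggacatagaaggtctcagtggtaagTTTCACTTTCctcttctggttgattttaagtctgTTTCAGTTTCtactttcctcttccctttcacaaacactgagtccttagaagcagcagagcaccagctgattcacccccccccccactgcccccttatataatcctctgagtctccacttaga
Gbp7: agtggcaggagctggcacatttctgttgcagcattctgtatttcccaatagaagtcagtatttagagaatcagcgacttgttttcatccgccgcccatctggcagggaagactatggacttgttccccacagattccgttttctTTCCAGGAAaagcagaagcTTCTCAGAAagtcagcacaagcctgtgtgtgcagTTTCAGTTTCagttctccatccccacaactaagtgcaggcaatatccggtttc

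Among the Ifit, Oas and Mx genes, 4 of 11 fell in LFA1-hi macrophages and 0 rose, beside 15.6% and 16.1% of all tested genes. Those that fell were Ifit1, Ifit3, Ifit3b and Oas2. The median log2 fold change was -0.75, and by family it was -2.42 for Ifit, -0.38 for Oas and -1.21 for Mx genes. Ifit proteins bind viral RNA and block its translation, and their genes lie together on chromosome 19. Ifit3 (chr19:34583119-34588982, GRCm38) had 10.7, 7.85 and 6.00 TPM in LFA1-hi libraries, against 20.1, 75.7 and 54.2 TPM in LFA1-lo libraries. The groups did not overlap, although LFA1-lo replicate 1 was much nearer to the LFA1-hi libraries than its fellows were. The log2 fold change of Ifit3 was -2.60 ± 0.52 (SE; adjusted p = 0.0117, edgeR). Ifit3b, its near-identical neighbour, had 0.45, 1.10 and 0.23 TPM in LFA1-hi libraries and 2.22, 11.1 and 14.8 TPM in LFA1-lo libraries (log2 fold change -4.02 ± 0.83, edgeR adjusted p = 0.00966). The longest coding transcripts of Ifit3 and Ifit3b were 98.0% identical over 1697 aligned bases, so reads can be assigned to either, and their sum was 11.1, 8.95 and 6.23 TPM in LFA1-hi libraries against 22.3, 86.8 and 69.1 TPM in LFA1-lo libraries. The sum was thus also lower in every LFA1-hi library. Ifit1 had 4.92, 3.99 and 2.67 TPM in LFA1-hi libraries and 7.02, 25.3 and 22.7 TPM in LFA1-lo libraries (-2.23 ± 0.50, edgeR adjusted p = 0.0144). Ifit2 had 14.9, 11.5 and 10.1 TPM in LFA1-hi libraries, against 13.65, 56.8 and 48.0 TPM in LFA1-lo libraries, and missed the threshold (edgeR adjusted p = 0.0670). Its LFA1-lo replicate 1 lay inside the LFA1-hi range.

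The Oas genes encode synthetases that make 2-5A, the activator of the antiviral nuclease RNase L, or, for Oasl1 and Oasl2, relatives of them. Oas2 fell, with 8.76, 9.44 and 7.66 TPM in LFA1-hi libraries and 11.0, 15.6 and 15.6 TPM in LFA1-lo libraries (log2 fold change -0.69 ± 0.16, edgeR adjusted p = 0.0113). Oas1a, the most abundant Oas gene, had 76.2, 80.0 and 72.5 TPM in LFA1-hi libraries against 63.3, 99.2 and 85.3 TPM in LFA1-lo libraries (-0.10, 95% interval -0.46 to 0.26). In Oas1a and Oasl2 the groups overlapped, with LFA1-lo replicate 1 below every LFA1-hi library and replicates 2 and 3 above. Oasl2 had 47.4, 44.2 and 40.7 TPM in LFA1-hi libraries and 38.2, 87.0 and 76.4 TPM in LFA1-lo libraries (edgeR adjusted p = 0.165). Oasl1, which in mice limits translation of Irf7, had the only positive value of the class, with 8.20, 12.9 and 11.2 TPM in LFA1-hi libraries against 2.07, 8.62 and 4.14 TPM in LFA1-lo libraries (1.13 ± 0.46, edgeR adjusted p = 0.0982). It is the effector gene that was higher at an unadjusted p under 0.05.

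Mx1 and Mx2 are genes of a family of dynamin-like GTPases, and neither passed the threshold. Whether either RNA yields a working protein in this strain was not tested. Mx1 had 3.32, 3.83 and 2.74 TPM in LFA1-hi libraries, against 1.17, 9.34 and 6.10 TPM in LFA1-lo libraries (edgeR adjusted p = 0.398). Mx2 had 1.38, 0.26 and 1.38 TPM in LFA1-hi libraries and 1.07, 5.30 and 3.56 TPM in LFA1-lo libraries (edgeR adjusted p = 0.106). For both, LFA1-lo replicates 2 and 3 were above every LFA1-hi library and replicate 1 was not. Their transcripts were 79.0% identical where aligned.

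The Gbp and Irg GTPase genes were next. Of the 10 tested, 6 fell (Gbp2, Gbp5, Gbp7, Igtp, Irgm1 and Irgm2) and 0 rose, beside 15.6% and 16.1% of all tested genes. The median log2 fold change was -1.08, with -1.52 for Gbp and -0.92 for Irg genes. Gbp2 (chr3:142620663-142638008), a GTPase recruited to pathogen vacuoles, had 8.25, 7.13 and 7.98 TPM in LFA1-hi libraries against 20.9, 36.5 and 26.6 TPM in LFA1-lo libraries (-1.83 ± 0.22, edgeR adjusted p = 0.000396). Gbp5, which promotes inflammasome assembly, had 0.42, 0.62 and 0.91 TPM in LFA1-hi libraries and 2.66, 7.38 and 4.42 TPM in LFA1-lo libraries (-2.87 ± 0.46, edgeR adjusted p = 0.00172). In both genes every LFA1-lo library, replicate 1 included, was above the highest LFA1-hi library. Gbp3 had 4.63, 3.86 and 5.73 TPM in LFA1-hi libraries and 5.42, 9.86 and 10.2 TPM in LFA1-lo libraries, and just missed the threshold (edgeR adjusted p = 0.0501).

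Irgm1 and Irgm2 are regulators that keep other Irg proteins off the cell's own membranes. Irgm1 (chr11:48865245-48871420) had 36.0, 33.4 and 27.6 TPM in LFA1-hi libraries against 47.4, 75.2 and 66.5 TPM in LFA1-lo libraries (-0.95 ± 0.18, edgeR adjusted p = 0.00574). Irgm2, whose promoter window was printed above, had 14.7, 14.2 and 13.5 TPM in LFA1-hi libraries and 22.4, 26.4 and 31.8 TPM in LFA1-lo libraries (-0.90 ± 0.14, edgeR adjusted p = 0.00118). Neither overlapped between groups. Ifi47, an Irg GTPase, did overlap, with 23.6, 23.5 and 26.2 TPM in LFA1-hi libraries and 21.3, 43.5 and 35.0 TPM in LFA1-lo libraries (edgeR adjusted p = 0.263). Tgtp1 and Tgtp2, effector Irg GTPases, were 99.8% identical over 2810 aligned bases, with 6 mismatches. Tgtp1 was listed at 0 in all LFA1-hi libraries and at 0, 0 and 0.91 TPM in LFA1-lo libraries, and was not tested. Tgtp2 had 3.50, 2.33 and 2.91 TPM in LFA1-hi libraries against 3.25, 13.6 and 6.78 TPM in LFA1-lo libraries (edgeR adjusted p = 0.0611). Summed over the pair, TPM was 3.50, 2.33 and 2.91 in LFA1-hi libraries and 3.25, 13.6 and 7.69 in LFA1-lo libraries, so replicate 1 again stayed in the LFA1-hi range.

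**Figure D2:**
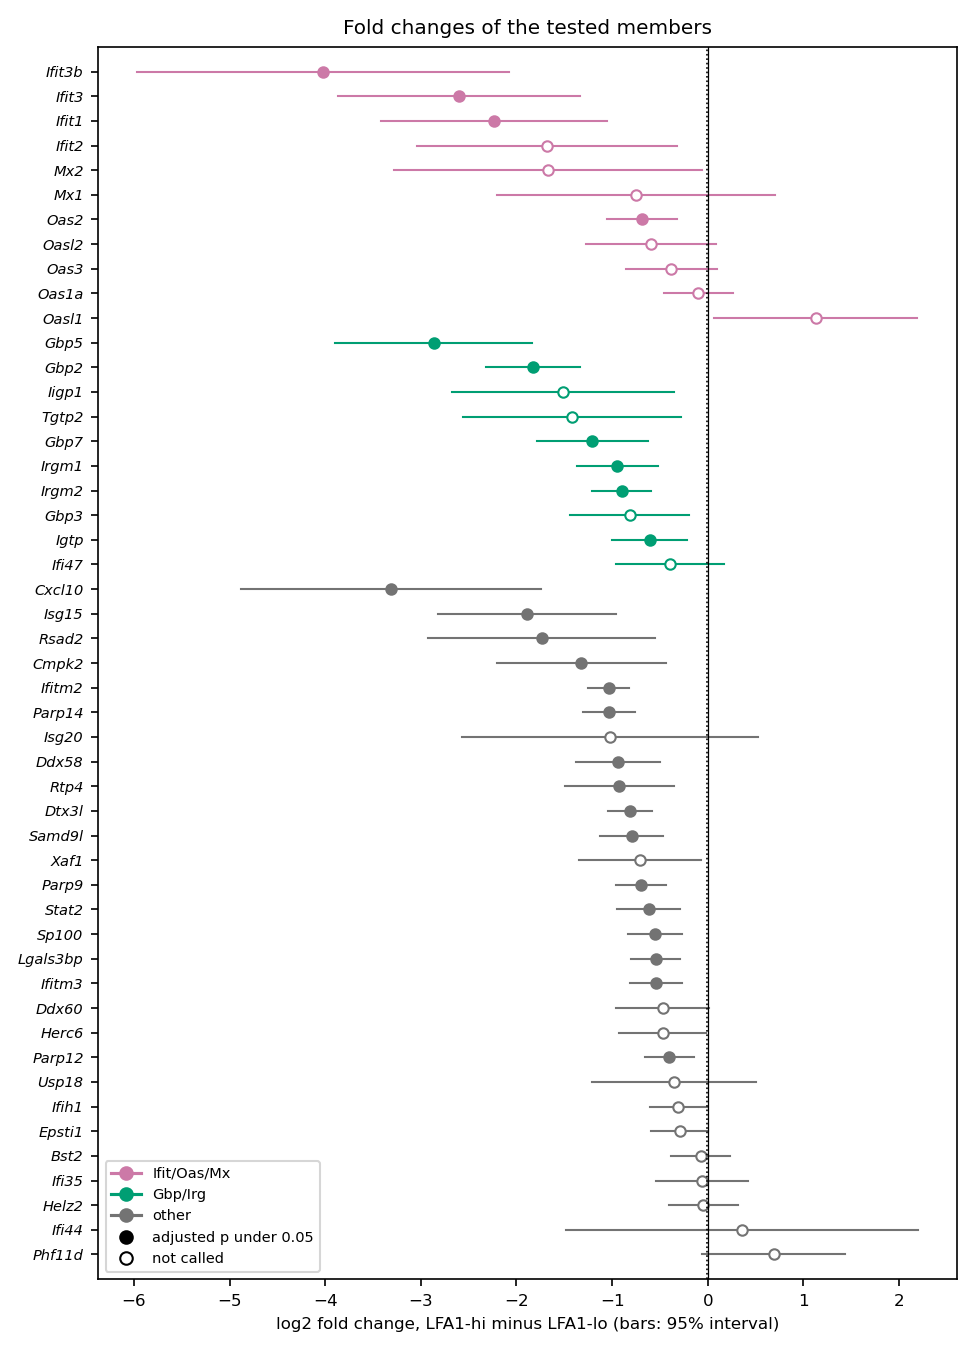
Log2 fold change (LFA1-hi minus LFA1-lo) of the 49 tested genes with approximate 95% intervals derived from the edgeR F statistic, grouped by class, with the median over all tested genes as a dotted line. The class medians are -0.75 for Ifit, Oas and Mx genes, -1.08 for Gbp and Irg genes and -0.59 for the others. Families within a class differ, with medians of -2.42 for Ifit, -0.38 for Oas, -1.21 for Mx, -1.52 for Gbp and -0.92 for Irg genes.

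The spread within the LFA1-lo libraries was set beside that within the LFA1-hi libraries for each class. The SD of log2(TPM + 0.1) over the 3 LFA1-lo libraries had a median of 1.00 for Ifit, Oas and Mx genes, 0.51 for Gbp and Irg genes and 0.33 for the other effectors, beside 0.20 over all tested genes. The wide spread was not shared by the Oas genes. By family the median was 1.07 for Ifit, 0.47 for Oas, 1.34 for Mx, 0.51 for Gbp and 0.44 for Irg genes. In LFA1-hi libraries the median SD was 0.28 for Ifit, Oas and Mx genes and 0.21 for Gbp and Irg genes, beside 0.12 over all tested genes. Over all 49 genes the median SD was 0.17 in LFA1-hi libraries and 0.47 in LFA1-lo libraries, and the LFA1-lo value was the larger in 46 of 49 genes, against 70.5% of all tested genes. The difference in spread between the classes was not tested.

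Within LFA1-lo, replicate 1 was the library that stood lowest. The median log2 ratio of LFA1-lo replicate 2 to replicate 1 was 1.91 for Ifit, Oas and Mx genes, 0.83 for Gbp and Irg genes and 0.57 for the others, beside -0.06 over all tested genes. For replicate 3 over replicate 1 it was 1.43, 0.71 and 0.55, beside -0.01. By family the ratio of replicate 2 to replicate 1 was 1.98 for Ifit, 0.65 for Oas, 2.55 for Mx, 0.83 for Gbp and 0.85 for Irg genes. Against the mean of the LFA1-hi libraries, LFA1-lo replicate 1 was higher by a median log2 ratio of 0.18 in Ifit, Oas and Mx genes and 0.51 in Gbp and Irg genes. Families within a class differed in this ratio, at 1.11 for Ifit, -0.20 for Oas, -0.53 for Mx, 1.02 for Gbp and 0.36 for Irg genes. Without LFA1-hi replicates 1, 2 and 3 in turn, 23, 19 and 18 genes fell (background 9.84%, 9.21% and 10.0%). Without LFA1-lo replicate 1, 40 of 49 genes fell (background 11.5%), among them 9 of 11 Ifit, Oas and Mx genes and 10 of 10 Gbp and Irg genes. Without LFA1-lo replicate 2, 19 fell and 2 rose (Oasl1 and Phf11d; background 20.5% lower and 21.8% higher), and without LFA1-lo replicate 3, 19 fell (background 14.6%). Of the 26 genes that fell, 13 also fell whichever library was left out, a share close to the 53.3% of all genes called lower. These were 0 of the 4 Ifit, Oas and Mx genes, 5 of the 6 Gbp and Irg genes (all but Igtp) and 8 of the 16 others.

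**Figure D3:**
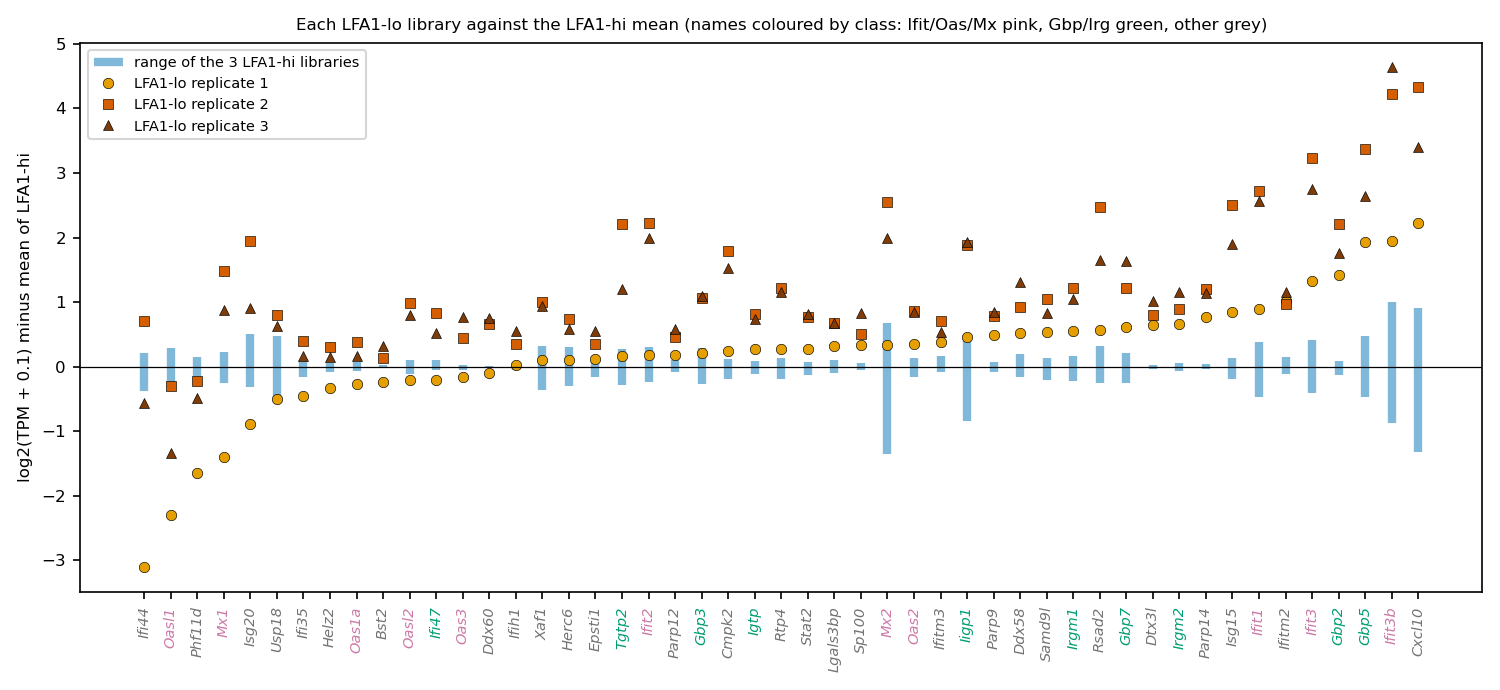
Each tested effector gene in the 3 LFA1-lo libraries, as log2(TPM + 0.1) minus the mean of the LFA1-hi libraries, with blue bars for the range of the LFA1-hi libraries and genes ordered by LFA1-lo replicate 1. Replicate 1 lies lowest of the 3 in 48 of 49 genes, and the median log2 ratio of replicate 2 to replicate 1 is 1.91 for Ifit, Oas and Mx genes and 0.83 for Gbp and Irg genes. Within the former class it is 1.98 for Ifit, 0.65 for Oas and 2.55 for Mx genes.

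**Figure D4:**
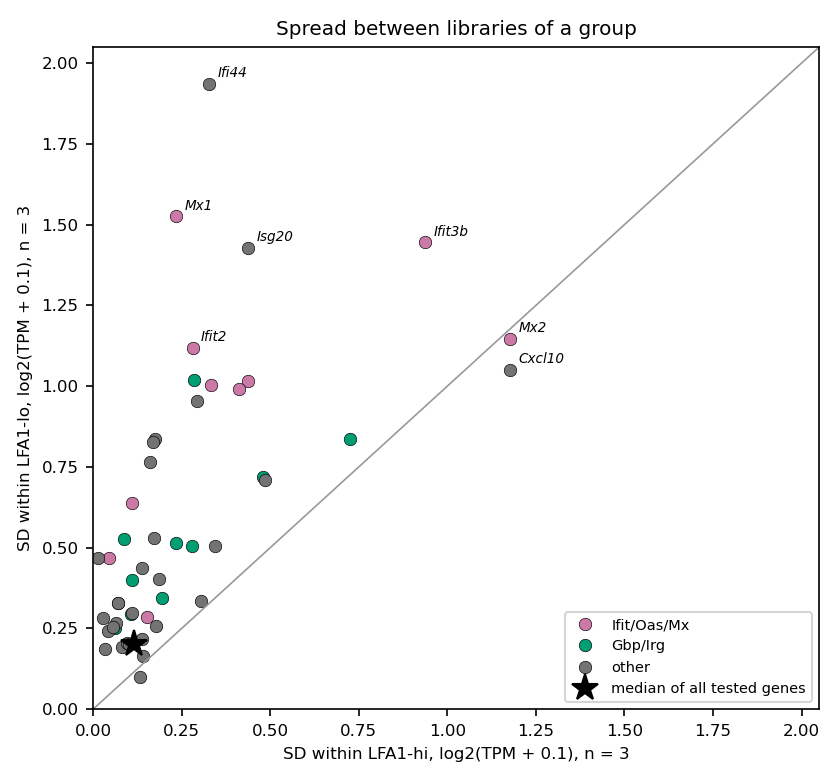
SD of log2(TPM + 0.1) over the 3 LFA1-hi libraries (horizontal axis) and over the 3 LFA1-lo libraries (vertical axis), with a point for each tested effector gene, a star for the median of all tested genes and a line of equal SD. In 46 of 49 genes the LFA1-lo SD is the larger, with medians of 0.17 in LFA1-hi libraries and 0.47 in LFA1-lo libraries.

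Among the genes with the widest LFA1-lo spread were Ifi44 and Isg20, both of low level. Ifi44, a cytosolic antiviral protein, had 1.63, 1.69 and 1.09 TPM in LFA1-hi libraries and 0.08, 2.41 and 0.95 TPM in LFA1-lo libraries (edgeR adjusted p = 0.767). Isg20, an exonuclease that degrades RNA, had 3.16, 1.75 and 1.93 TPM in LFA1-hi libraries and 1.15, 8.75 and 4.22 TPM in LFA1-lo libraries (edgeR adjusted p = 0.289). In both genes LFA1-lo replicate 1 was below every LFA1-hi library.

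Of the 28 tested effectors outside both classes, Ifi44 and Isg20 included, 16 fell and 0 rose, beside 15.6% and 16.1% of all tested genes. Isg15 encodes a ubiquitin-like protein that is attached to other proteins, and had 17.8, 14.1 and 16.7 TPM in LFA1-hi libraries against 29.1, 91.5 and 60.4 TPM in LFA1-lo libraries (-1.89 ± 0.40, edgeR adjusted p = 0.00952). Usp18, which removes Isg15 and dampens the type I receptor, had 12.4, 9.07 and 6.32 TPM in LFA1-hi libraries and 6.28, 15.6 and 13.9 TPM in LFA1-lo libraries (edgeR adjusted p = 0.515). Herc6, the mouse ligase that attaches Isg15, had 7.99, 9.88 and 6.44 TPM in LFA1-hi libraries and 8.57, 13.4 and 12.0 TPM in LFA1-lo libraries (edgeR adjusted p = 0.105). Of these, Isg15 separated the groups, and Usp18 and Herc6 overlapped.

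The chemokine Cxcl10 draws activated T cells. It had 2.88, 0.53 and 2.01 TPM in LFA1-hi libraries against 7.33, 31.7 and 16.7 TPM in LFA1-lo libraries (-3.31 ± 0.68, edgeR adjusted p = 0.00821), with no overlap. Cxcl9, a related chemokine known for its response to interferon gamma, was near its limit of detection, at 0.04, 0 and 0 TPM in LFA1-hi libraries and 0.04, 0.33 and 0.32 TPM in LFA1-lo libraries, and was not tested.

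The Parp family and its partner Dtx3l varied little. All 4 genes fell, beside 15.6% of all tested genes. The median SD in LFA1-lo libraries was 0.20, the same as over all tested genes. Parp14, an ADP-ribosyl transferase, had 43.6, 45.2 and 42.7 TPM in LFA1-hi libraries against 74.5, 101 and 96.9 TPM in LFA1-lo libraries (-1.03 ± 0.12, edgeR adjusted p = 0.000351). Dtx3l, a ubiquitin ligase that pairs with Parp9, had 29.0, 28.9 and 27.8 TPM in LFA1-hi libraries and 44.9, 49.9 and 58.1 TPM in LFA1-lo libraries (-0.81 ± 0.10, edgeR adjusted p = 0.000498). Both were separated by a gap much wider than the spread of the LFA1-hi libraries. Parp12 had 32.2, 36.7 and 33.5 TPM in LFA1-hi libraries and 38.8, 47.0 and 51.3 TPM in LFA1-lo libraries (-0.40 ± 0.11, edgeR adjusted p = 0.0250). Parp9 and Dtx3l overlap in the annotation, so reads from the shared stretch cannot be told apart without strand.

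Membrane and secreted effectors were the most abundant. Ifitm3, which blocks viral entry at endosomes, had 998, 845 and 843 TPM in LFA1-hi libraries against 1161, 1461 and 1301 TPM in LFA1-lo libraries (-0.54 ± 0.12, edgeR adjusted p = 0.00930). Ifitm2, its relative, had 509, 449 and 426 TPM in LFA1-hi libraries and 929.9, 901 and 1029 TPM in LFA1-lo libraries (-1.03 ± 0.10, edgeR adjusted p = 9.54e-05). Ifitm2 had the smallest adjusted p of the 49 genes and the tightest LFA1-lo libraries, with an SD of 0.10. The transcripts of Ifitm2 and Ifitm3 were 76.9% identical where aligned. Lgals3bp, a secreted glycoprotein, had 324, 299 and 282 TPM in LFA1-hi libraries against 377, 480 and 479 TPM in LFA1-lo libraries (-0.54 ± 0.11, edgeR adjusted p = 0.00678).

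RNA sensors and the remaining antiviral genes followed the same direction where they passed. Ddx58 (RIG-I), a sensor of viral RNA, had 17.2, 20.4 and 15.9 TPM in LFA1-hi libraries against 25.4, 33.9 and 44.3 TPM in LFA1-lo libraries (-0.94 ± 0.19, edgeR adjusted p = 0.00784). Ifih1 (MDA5), a sensor of long double-stranded RNA, had 14.7, 16.1 and 15.1 TPM in LFA1-hi libraries and 15.6, 19.5 and 22.6 TPM in LFA1-lo libraries (edgeR adjusted p = 0.104). Ddx58 separated the groups, and Ifih1 did not. Sp100, a nuclear body protein, had 50.9, 49.4 and 47.2 TPM in LFA1-hi libraries and 62.2, 69.5 and 87.9 TPM in LFA1-lo libraries (-0.55 ± 0.13, edgeR adjusted p = 0.00954). Samd9l, an antiviral translation inhibitor, had 26.9, 28.0 and 22.3 TPM in LFA1-hi libraries and 37.0, 52.9 and 45.5 TPM in LFA1-lo libraries (-0.79 ± 0.15, edgeR adjusted p = 0.00372). Neither overlapped between groups. Rtp4 had 41.6, 39.2 and 33.1 TPM in LFA1-hi libraries against 45.75, 88.04 and 84.7 TPM in LFA1-lo libraries (-0.93 ± 0.25, edgeR adjusted p = 0.0239), and Stat2, the type I interferon signal carrier, had 30.3, 30.2 and 26.5 TPM in LFA1-hi libraries against 35.1, 49.2 and 51.04 TPM in LFA1-lo libraries (-0.62 ± 0.15, edgeR adjusted p = 0.0116). 

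Of the effector genes not given library by library, 5 fell without overlap between the groups. Their log2 fold changes were -1.74 for Rsad2 (viperin), -1.32 for Cmpk2, a nucleotide kinase, -1.21 for Gbp7, -0.70 for Parp9 and -0.61 for Igtp. The others did not pass. Iigp1, an effector Irg GTPase, had a log2 fold change of -1.52 (edgeR adjusted p = 0.0506), and Xaf1, Ddx60, Oas3 and Epsti1 had values from -0.71 to -0.29. Bst2 (tetherin), Ifi35 and Helz2 had values from -0.08 to -0.05. Phf11d had the opposite order, with all LFA1-lo libraries below the LFA1-hi libraries (0.69, edgeR adjusted p = 0.144).

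The upstream pathway was described from other gene lists. Of 20 interferon genes, 17 had 0 counts in every library, Ifnb1 and Ifng among them, and the highest level of any was 1.64 TPM. Of 8 tested receptor and kinase genes, 6 fell and 0 rose, beside 15.6% and 16.1% of all tested genes. Ifnar1 had 48.2, 51.1 and 48.6 TPM in LFA1-hi libraries against 86.6, 77.2 and 78.9 TPM in LFA1-lo libraries (-0.69 ± 0.07, edgeR adjusted p = 0.000154). Ifngr1 had 106, 105 and 96.8 TPM in LFA1-hi libraries and 269, 182 and 220.3 TPM in LFA1-lo libraries (-1.10 ± 0.12, edgeR adjusted p = 0.000242). In both receptors LFA1-lo replicate 1 was the highest library, unlike its place in the effector genes. Ifngr2 (-0.55, edgeR adjusted p = 0.00124) and Tyk2, a receptor kinase (-0.40, edgeR adjusted p = 0.0147), also fell.

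Of 12 transcription factors and inhibitors of the pathway, 7 fell and 0 rose, beside 15.6% and 16.1% of all tested genes. Irf1, a transcription factor induced by interferon gamma, had 30.1, 29.1 and 26.7 TPM in LFA1-hi libraries against 70.5, 74.9 and 58.4 TPM in LFA1-lo libraries (-1.23 ± 0.12, edgeR adjusted p = 0.000116). Irf1 was high in all LFA1-lo libraries, replicate 1 included. Irf7, the amplifier of type I interferon, had 33.6, 37.8 and 35.3 TPM in LFA1-hi libraries against 28.8, 65.4 and 73.0 TPM in LFA1-lo libraries (edgeR adjusted p = 0.173). Irf9 had 31.7, 37.9 and 27.6 TPM in LFA1-hi libraries and 44.7, 40.0 and 38.6 TPM in LFA1-lo libraries (edgeR adjusted p = 0.0568). Socs3, an inhibitor of cytokine signalling, fell by 1.99 on the log2 scale, and Irf3 fell by 0.45.

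Of 13 genes for the induction of interferon, 4 fell and 1 rose, beside 15.6% and 16.1% of all tested genes. Tlr9, the receptor for unmethylated DNA, had 3.15, 2.97 and 2.29 TPM in LFA1-hi libraries against 12.0, 14.6 and 17.0 TPM in LFA1-lo libraries (-2.35 ± 0.19, edgeR adjusted p = 4.77e-05). Unc93b1, which carries Tlr9 to endosomes, fell by 1.22 and the kinase Ikbke fell by 0.92 on the log2 scale. The DNA sensor Mb21d1 (cGAS) rose, with 12.1, 10.9 and 11.6 TPM in LFA1-hi libraries and 6.17, 6.18 and 4.96 TPM in LFA1-lo libraries (1.02 ± 0.14, edgeR adjusted p = 0.000752). Among further interferon-stimulated genes outside the 51, 11 of 32 fell and 0 rose, beside the same shares of all tested genes. Examples on the log2 scale were Samhd1 (-1.01), Tor3a (-0.87), Trafd1 (-0.77) and Ifi203 (-0.76). Of further GTPases 4 of 9 fell (Gm5431, Gbp9, Gm12250 and 9930111J21Rik1). Of further Ifit and Oas genes 1 of 4 fell (Ifit1bl1, which overlaps Ifit1 and Ifit3b in the annotation). Both counts rest on few genes and stand beside 15.6% of all tested genes.

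The neutrophil markers did not move together. Of 11 listed, 6 were tested, and none was at 0 in every library. Of the 6 tested, 3 fell and 1 rose, beside 15.6% and 16.1% of all tested genes. S100a9 had 3.49, 2.30 and 3.88 TPM in LFA1-hi libraries against 20.4, 66.2 and 80.3 TPM in LFA1-lo libraries (-4.08 ± 0.57, edgeR adjusted p = 0.00117). Ngp had 0.10, 1.36 and 1.77 TPM in LFA1-hi libraries and 7.43, 25.5 and 26.4 TPM in LFA1-lo libraries, and Ltf fell by 3.86 on the log2 scale. In these 3 genes LFA1-lo replicate 1 was the lowest LFA1-lo library, as in the effectors. Replicate 1 was the lowest in 5 of the 6 tested markers, against 23.9% of all tested genes. Among the 5 is Cebpe, whose 3, 3 and 4 expected counts in LFA1-lo libraries are too few to order them. S100a8, another of the 5, had 27.6, 17.5 and 26.8 TPM in LFA1-hi libraries and 22.0, 41.8 and 66.7 TPM in LFA1-lo libraries. It was not called (log2 fold change -0.86, edgeR adjusted p = 0.149). Cebpe went the other way, with 2.97, 4.22 and 2.70 TPM in LFA1-hi libraries against 0.32, 0.33 and 0.42 TPM in LFA1-lo libraries (3.17 ± 0.51, edgeR adjusted p = 0.00174). Mmp8 had 76.8, 85.4 and 62.7 TPM in LFA1-hi libraries and 100.6, 38.3 and 109.8 TPM in LFA1-lo libraries, with replicate 2 the lowest LFA1-lo library, and was not called.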

How the data were processed

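The 6 libraries, 3 per group, were assigned from the labelled cell markers. Reads were handled with Trim Galore, RSEM and bcl2fastq against GRCm38, per the submitters' processing notes. The aligner, tool versions and strand setting were not given in the sources used. Per the file headers, the deposited values are RSEM expected counts, not normalized, and TPM, scaled by effective length and library total. The authors' TPM values were used for levels and for spread, as log2(TPM + 0.1).

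Expected counts were rounded, filtered with filterByExpr (11692 genes left) and scaled by TMM (factors 0.956 to 1.034). LFA1-hi minus LFA1-lo was tested by edgeR 4.0.16 (R 4.3.3; limma 3.58.1) with quasi-likelihood F-tests and robust estimation, adjusted by Benjamini-Hochberg over all tested genes at a threshold of 0.05. The biological coefficient of variation was 15%. The procedure was also run on simulated counts in which each gene varied alike in both groups. The spread here differed between groups, so that run does not bear on it. Figures were drawn with matplotlib 3.10.9, and tables made with numpy 2.4.6 and pandas 2.3.3 in Python 3.11.15.

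The members and lists were chosen with earlier results of these data known. Values in every library are given for 36 members: in each family the 2 of highest mean TPM and the 2 of smallest adjusted p, the 6 of largest LFA1-lo spread, and near-identical copies. Ifit1 was given likewise, and members named with a fold change alone were added, after their values were seen. Mmp8, S100a8, Itgax, Batf3 and the markers at or near 0 were also added after their values were seen. From each list up to 4 called genes of largest change are named, with Irf1, Irf7, Irf9, Ifnar1, Ifngr1, Ifnb1 and Ifng; a gene that the rule takes is not reported here. Of the 51 members, 15 overlap another annotated gene, and their counts are uncertain. Gene positions and gene overlaps are from RefSeq genes, promoters are from RefSeq (GRCm38.p6), and transcripts are from GENCODE M21. Alternatives were other scalings and filters, unrounded counts, each library left out, a replicate block, DESeq2 1.42.0, limma voom, limma-trend on TPM, a threshold of 0.01 and a fit that is not robust.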

Additional observations from a re-analysis of the deposited data

How the results depend on the processing

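The median log2 fold changes of both classes kept their sign under every alternative run. The count of 26 lower effector genes ranged from 18 to 40 when single libraries were left out and was 17 at a threshold of 0.01 (8.70% of all genes). The count of higher genes was 0, and 0 to 2 with single libraries left out, and it was 1 with DESeq2 and 1 with limma voom. The count of Ifit, Oas and Mx genes called in either direction, 4, ranged from 2 to 9 with libraries left out. It was 8 with DESeq2 (17.4% of all genes lower and 17.3% higher) and 1 at a threshold of 0.01 (8.70% lower and 8.61% higher). Without LFA1-lo replicate 2, the 2 genes called were Oas2, which fell, and Oasl1, which rose. The 8 called by DESeq2 also include Oasl1 as higher. The Gbp and Irg count of 6 ranged from 5 to 10 with libraries left out. In the fits with a library left out, 9.21% to 20.5% of all tested genes were called lower. Deviations of same-numbered libraries correlated at 0.037, 0.018 and -0.072. Such values cannot decide whether replicate numbers pair the samples, which the labels do not say. With a replicate block 1 effector gene was higher and 22 were lower (14.5% and 13.4% of all genes). Signs turned in 5 genes, called in neither setting. With single libraries left out, log2 fold changes ranged from -0.27 to 0.076 for Oas1a, from -0.28 to 0.15 for Ifi35, from -0.22 to 0.11 for Helz2, from -0.23 to 0.046 for Bst2 and from -0.19 to 1.53 for Ifi44. With library totals they were 0.0037 for Ifi35 and 0.019 for Helz2. The cause was not tested. Cxcl9 and Tgtp1 had too few counts to pass the filter. Ifi44 had 2 to 58 expected counts in LFA1-lo libraries and Mx2 had 21.4 to 104.6.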
